A study of Mus musculus with 14 samples.

Results

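The genes described here encode the receptors for glutamate and GABA, the main excitatory and inhibitory transmitters of the forebrain. Members were the probe sets annotated with exactly 1 gene symbol from the AMPA (Gria), kainate (Grik), NMDA (Grin), metabotropic glutamate (Grm), GABA-A alpha, beta, gamma and delta (Gabra, Gabrb, Gabrg, Gabrd) and GABA-B (Gabbr) receptor families. This gave 28 probe sets for 27 genes, of 14860 genes with a probe set of their own and 23332 probe sets in all. Gabrb2 had 2 probe sets, and the one with the higher mean was used. Of the 39 genes of these families in the RefSeq table, 12 are not described: Grin3a, Gabrb1 and Gabrg1 share a probe set with another gene, and the remaining 9 were not analysed here.

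The study profiled cerebral cortex and hippocampus of C57BL/6 mice at postnatal day 7, all labelled male, on Affymetrix whole-transcript arrays. Every animal carried Ctcf fl/fl, a floxed allele of the gene for the chromatin insulator protein CTCF. Controls had no Cre (Nex-Cre +/+), and conditional knockouts (cKO) carried 1 copy of Nex-Cre (+/Cre), a Cre knocked into Neurod6 that is active in newly formed excitatory neurons of the forebrain but not in interneurons or glia. The knock-in replaces a Neurod6 allele in the cKO animals, and no group with Cre alone was among the arrays. The labels give 4 control and 4 cKO arrays for cortex and 3 of each for hippocampus, name them biological replicates and tie none to a named animal, so the p-values speak only to how far these arrays vary.

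Ionotropic receptors are channels assembled from several subunits. AMPA and kainate receptors carry fast excitatory current, NMDA receptors also admit calcium, and GABA-A receptors admit chloride. Metabotropic glutamate and GABA-B receptors act through G proteins. Group III metabotropic receptors, such as mGluR8 (Grm8) and mGluR7 (Grm7), sit mostly on axon terminals and restrain transmitter release. In the first postnatal weeks the subunit makeup of these receptors is still changing, and in whole tissue fewer cells of a type and less RNA per cell cannot be told apart.

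Grm8 and Grik4 were the only members called between genotypes in cortex, so the 250 bases before the annotated start of each are shown. Both come from the RefSeq promoter table (build GRCm38.p6). Capitals mark AGNNGGC, the core of the CTCF binding motif, or its reverse complement GCCNNCT.

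Grik4, chr9:42944372-42944621, minus strand: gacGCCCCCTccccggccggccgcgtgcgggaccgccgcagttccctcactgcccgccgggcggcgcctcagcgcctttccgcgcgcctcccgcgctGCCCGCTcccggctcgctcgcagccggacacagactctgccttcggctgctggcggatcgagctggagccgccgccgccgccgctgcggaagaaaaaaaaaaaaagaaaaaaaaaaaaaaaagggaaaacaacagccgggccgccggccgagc

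Grm8, chr6:28135147-28135396, minus strand, the most upstream of 3 annotated starts: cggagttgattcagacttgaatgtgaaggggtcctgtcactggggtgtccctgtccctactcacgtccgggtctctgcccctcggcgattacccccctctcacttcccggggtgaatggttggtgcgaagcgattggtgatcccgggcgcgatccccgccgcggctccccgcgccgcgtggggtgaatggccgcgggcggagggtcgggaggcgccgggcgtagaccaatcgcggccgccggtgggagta

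The Grik4 window held 2 matches to the core and this Grm8 window none, with a GC content of 69.6% and 68.4%. The windows before the other Grm8 starts, not printed, held 4 matches and none. Such windows could be read for 20 of the 27 genes, with 26 windows in all. The core was present in 16 of the 26 windows (61.5%), against 52.5% of 32851 windows of the same length in the table. A longer form on either strand, in which CCANN stands directly before the core, was in none of the 26 and in 2.07% of all windows. These are letter matches within a short window and say nothing of CTCF binding.

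The targeted gene separated the genotypes. On the log2 scale Ctcf was at 9.18 to 9.29 in cortex controls and 7.74 to 7.94 in cortex cKO, a difference of −1.42 (SE 0.08, limma adjusted p = 8.42e-05). Of the hippocampus-labelled arrays, control 2 and cKO 1 and 3 did not carry hippocampal markers. Prox1, a dentate granule cell factor, read 6.65 to 6.91 on those 3 arrays and 8.91 to 9.28 on the other 3, and Rorb, a marker of cortical layer IV, read 9.33 to 9.45 against 7.14 to 7.58. Each of the 3 ranked all probe sets as 1 cortex array of the same genotype did, at a Spearman correlation of 0.9968, with no other pair above 0.990. The 3 arrays were set aside, which left 2 control arrays and 1 cKO array for hippocampus, and the fit of 11 arrays gives each group 1 mean. Y-linked genes averaged 3.61 to 4.10 on cortex cKO 1 and 4, hippocampus control 1 and hippocampus cKO 2, and at least 7.91 on the other arrays. Median log2 values per array lay between 6.57 and 6.77, and the number of arrays limits the precision. Levels are given per probe set and are not comparable between genes.

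In cortex, 2 receptor genes were lower in cKO than in controls and none was higher. A probe set was called when its adjusted p was below 0.05 and its fold change above 1.2. Both called members, Grm8 and Grik4, are glutamate receptor genes. They make up 7.41% of the 27, where 1.95% of all probe sets were called, 1.36% lower and 0.591% higher. The median difference over the 27 genes was −0.01, against −0.02 over all probe sets, and the median absolute difference was 0.12, against 0.11. Negative differences were found in 16 of the 27 (59.3%), against 54.6% of all probe sets.

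In cortex controls, in the order of their replicate numbers, Grm8 was at 8.41, 8.10, 8.11 and 8.30, and in cortex cKO at 6.83, 6.81, 6.67 and 6.79. Every cKO array was more than 1 log2 unit below every control array. The mean fell from 8.23 ± 0.15 to 6.77 ± 0.07 (SD, n = 4 each), to 36.4% of the control level. The difference of −1.46 (SE 0.09, 95% interval −1.66 to −1.26) had a limma adjusted p of 0.000112, and by its size it ranked 35 of all 23332 probe sets.

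Grik4 encodes GluK4, a high-affinity kainate receptor subunit that forms channels only together with other kainate subunits. Its cortex values were 8.13, 7.86, 7.84 and 7.74 in controls and 7.14, 7.18, 7.18 and 7.05 in cKO, again with no overlap. The mean fell from 7.89 ± 0.17 to 7.14 ± 0.06 (SD, n = 4 each), to 59.3% of control. The difference was −0.75 (SE 0.09, 95% interval −0.97 to −0.54, limma adjusted p = 0.00388). The call ended without the cortex cKO arrays that lack Y-linked signal (−0.71, adjusted p = 0.119) and, just, with the replicate numbers as a block (adjusted p = 0.0533). It also ended with all 14 arrays as labelled (adjusted p = 0.564). There the cortex arrays and the difference of −0.75 were the same, and the spread shared by all groups changed. Grm8 passed under each of these alternatives, with −1.49 (adjusted p = 0.0273) without the arrays that lack Y-linked signal.

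**Figure D1:**
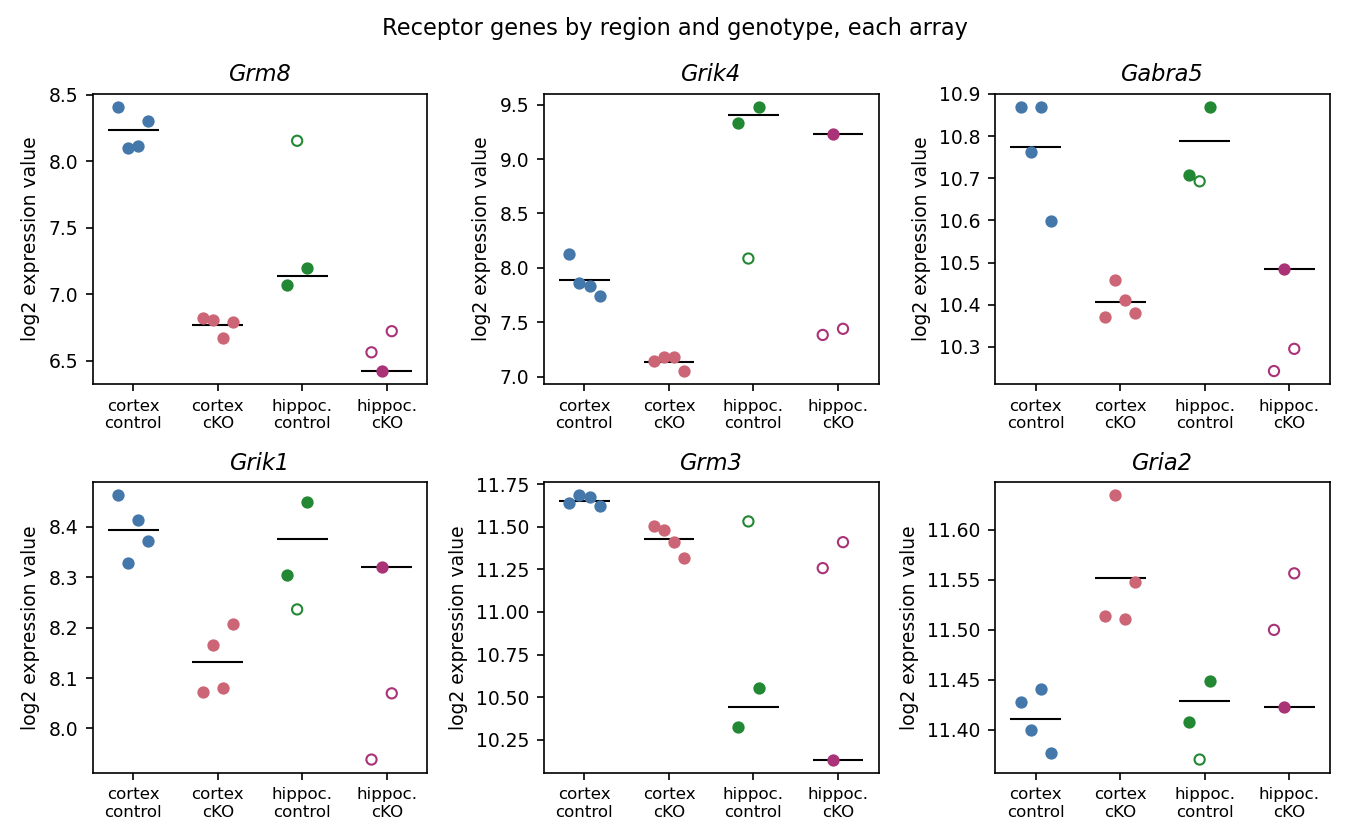
Log2 expression value (vertical axis) of 6 receptor genes on each of the 14 arrays, by region and genotype; filled points entered the fit, open points are the hippocampus-labelled arrays set aside, and lines are means of the filled points. In cortex the control and cKO points of Grm8 and Grik4 are far apart, those of Gabra5, Grik1, Grm3 and Gria2 are closer but do not overlap, and Grik4 is highest in hippocampus.

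The other kainate subunits differed less. Grik1 (GluK1) read 8.46, 8.33, 8.41 and 8.37 on cortex control arrays and 8.07, 8.17, 8.08 and 8.21 on cKO arrays. The groups did not overlap, but the difference of −0.26 (SE 0.07) had an adjusted p of 0.127. Grik2 (GluK2) and Grik5 (GluK5, the other high-affinity subunit) differed by −0.09 (SE 0.08) and 0.08 (SE 0.07), with overlapping groups.

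None of the 4 AMPA genes was called, and all 4 had positive differences, from 0.04 to 0.14. Gria2 encodes GluA2, the subunit that makes edited AMPA receptors nearly impermeable to calcium. It read 11.43, 11.40, 11.44 and 11.38 on control and 11.51, 11.63, 11.51 and 11.55 on cKO arrays. The groups did not overlap, and the difference was 0.14 (SE 0.06, adjusted p = 0.420). The positive sign of all 4 was kept after centring each array on its median and after a second quantile normalisation. The smallest, that of Gria1, was −0.0015 without cortex cKO 2.

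Of the 5 NMDA genes, none was called and 3 had positive differences. Grin2b and Grin2d encode GluN2B, the main partner subunit of the early postnatal forebrain, and GluN2D. Grin2b read 11.53, 11.58, 11.60 and 11.55 on control and 11.61, 11.69, 11.69 and 11.64 on cKO arrays, and the difference was 0.09 (SE 0.06, adjusted p = 0.671). Grin2d read 8.23, 8.25, 8.21 and 8.19 on control and 8.26, 8.30, 8.48 and 8.34 on cKO arrays, and the difference was 0.13 (SE 0.07, adjusted p = 0.557). For both genes every cKO array was above every control array, by margins smaller than the spread within a group.

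Grin2a encodes GluN2A, the subunit whose level climbs after birth in rodents. It had the widest scatter of any member: 9.68, 9.39, 9.39 and 9.68 on control and 8.59, 9.51, 9.43 and 8.83 on cKO arrays. cKO arrays 1 and 4 were the lowest, and arrays 2 and 3 lay within the control range. The difference was −0.44 (SE 0.21, adjusted p = 0.476), and it was −0.06 (SE 0.13) without cKO 1 and 4, the cortex arrays that lack Y-linked signal.

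Of the metabotropic genes, Grm8 alone was called. Grm3 (mGluR3, a group II receptor found on neurons and astrocytes) read 11.64, 11.69, 11.67 and 11.62 on control and 11.51, 11.48, 11.41 and 11.32 on cKO arrays. The groups did not overlap, and the difference was −0.23 (SE 0.08, adjusted p = 0.250). The other group III genes, Grm4, Grm6 and Grm7, differed by −0.26 (SE 0.10), −0.01 (SE 0.12) and 0.04 (SE 0.08), with overlapping groups.

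None of the 8 GABA-A genes was called, and 7 had negative differences, between −0.37 and −0.01, where 54.6% of all probe sets had one. Those of Gabra6 and Gabrg3, both near 0, turned positive after centring each array on its median (0.03 and 0.02). Gabra5 encodes the alpha5 subunit of extrasynaptic receptors that carry tonic inhibition. It read 10.87, 10.76, 10.87 and 10.60 on control and 10.37, 10.46, 10.41 and 10.38 on cKO arrays. All cKO arrays were below all control arrays, at a difference of −0.37 (SE 0.08, adjusted p = 0.0611). It was called under a second quantile normalisation (adjusted p = 0.0423), with a filter on dim probe sets (0.0492), with a trended robust variance (0.0198) and without cortex control 4 (0.0406). It was not called under the other alternatives. The limma adjusted p of Gabra5 was highest without the cortex arrays that lack Y-linked signal (0.363), and it was 0.173 without cortex control 3. Gabra4, the only positive one, read 9.49, 8.96, 9.05 and 9.59 on control and 9.12, 9.79, 9.66 and 9.36 on cKO arrays, which overlap, at 0.21 (SE 0.19, adjusted p = 0.783). Gabra6, known from cerebellar granule cells, read 3.52 to 3.92 on the cortex arrays, near the median of 3.55 over 719 olfactory receptor probe sets. Gabbr1, the ligand-binding subunit of GABA-B receptors, differed by 0.04 (SE 0.07).

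Counting members whose cortex groups did not overlap gave 8 of 27 (29.6%), against 8.4% of all probe sets. The 5 lower ones were Grm8, Grik4, Gabra5, Grik1 and Grm3, and the 3 higher ones were Gria2, Grin2b and Grin2d. At an unadjusted p under 0.05 there were also 8 members (29.6%, against 11.4% of all probe sets), among which Gabra3 and Grm4 stand in place of Grin2b and Grin2d.

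**Figure D2:**
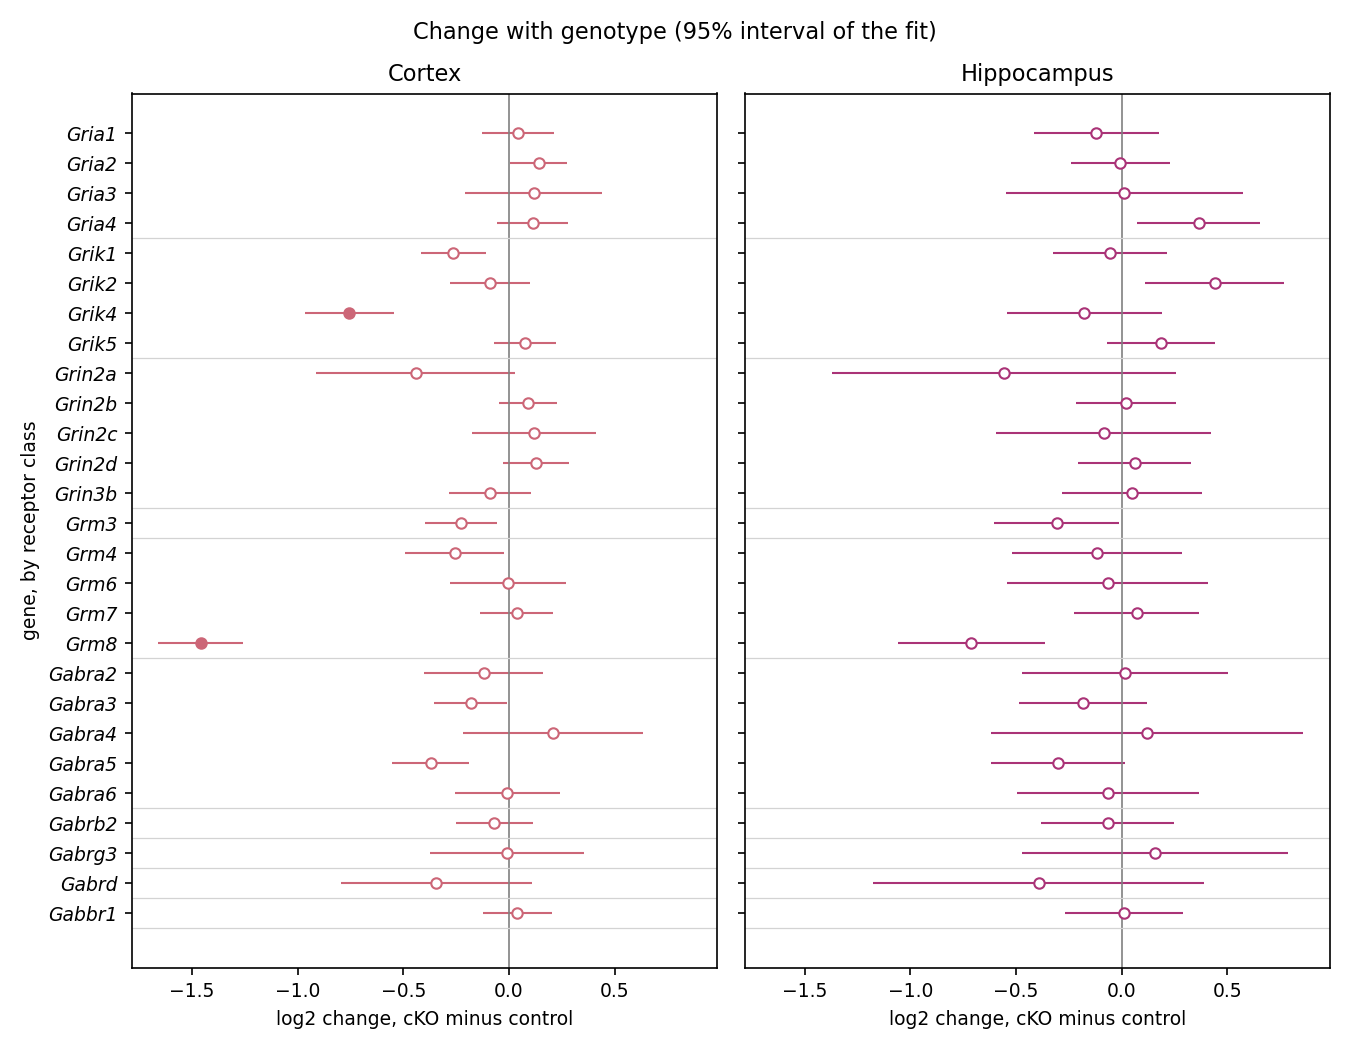
Difference in log2 expression, cKO minus control (horizontal axis), for the 27 receptor genes in cortex (4 against 4 arrays) and hippocampus (1 against 2 arrays); bars are 95% intervals from the fit and filled points passed the call. Grm8 and Grik4 are filled in cortex, none is filled in hippocampus, and the hippocampus intervals are wider.

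Receptor genes differed in how much they varied between cortex arrays of 1 genotype. The pooled standard deviation within groups was 0.34 for Grin2a, 0.33 for Gabrd, 0.31 for Gabra4, 0.26 for Gabrg3, 0.23 for Gria3 and 0.20 for Grin2c, where the median was 0.10 over the 27 genes and 0.18 over all probe sets. Gabra4 and Gabrd encode the alpha4 and delta subunits, which form extrasynaptic receptors together.

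Gabrd read 7.39, 6.69, 6.79 and 7.33 on control and 6.45, 6.92, 7.01 and 6.44 on cKO arrays. Gabrg3 read 8.92, 8.60, 8.60 and 8.92 on control and 8.42, 9.08, 8.94 and 8.54 on cKO arrays. Gria3 read 9.76, 9.47, 9.71 and 9.75 on control and 9.59, 10.12, 9.95 and 9.49 on cKO arrays. In Grin2a, Gabrd, Gabra4, Gabrg3 and Gria3 alike, control arrays 1 and 4 lay above 2 and 3. Their cKO arrays 2 and 3 lay above 1 and 4. The order was not particular to the most variable genes: Gabrb2, Gabbr1, Gria4 and Grm4, which varied less, had it too. Grin2c did not have it among controls (6.18, 6.27, 6.25 and 6.31).

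The means of the astrocyte, oligodendrocyte lineage, microglial, interneuron, thalamic and hippocampal markers followed the same order of arrays. Those of the excitatory neuron, endothelial and striatal markers did so among controls only. Those of the cortex and choroid plexus markers did so in neither genotype. The mean of the oligodendrocyte lineage markers was 7.84, 7.56, 7.59 and 8.03 on control and 7.62, 7.95, 7.97 and 7.60 on cKO arrays. The mean of the microglial markers was 6.89, 6.48, 6.53 and 7.05 on control and 6.80, 7.36, 7.23 and 6.85 on cKO arrays. The mean of the interneuron markers was 8.39, 8.27, 8.27 and 8.37 on control and 8.21, 8.38, 8.36 and 8.26 on cKO arrays, a narrower span than either glial list. cKO arrays 1 and 4 are also those without Y-linked signal. The part of cell composition in the spread of these genes was not tested.

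**Figure D3:**
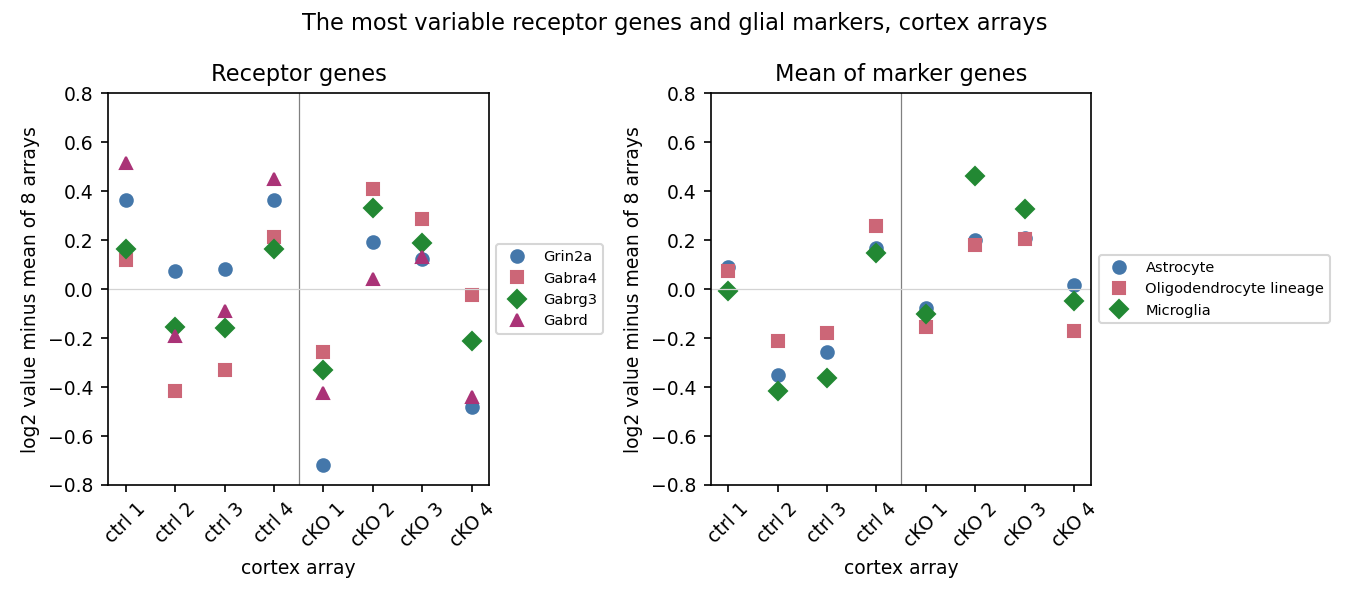
Log2 value of each gene or marker mean minus its own mean over the 8 cortex arrays (vertical axis) by array: Grin2a, Gabra4, Gabrg3 and Gabrd in the left panel, the means of astrocyte, oligodendrocyte lineage and microglial markers in the right. In both panels control arrays 1 and 4 lie above 2 and 3, and cKO arrays 2 and 3 above 1 and 4.

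Receptors work with auxiliary subunits, scaffolds and the enzymes and transporters of their transmitters, and 3 such lists were read in the same fit. Of 7 measured auxiliary subunits of AMPA and kainate receptors, 1 was called in cortex: Neto2, a partner of kainate receptors, fell by 0.67 (SE 0.13, limma adjusted p = 0.0413), and 6 of the 7 differences were negative. Of 20 measured scaffold and anchoring genes none was called (7 positive, 13 negative), and Dlgap3 had the smallest p (0.42, SE 0.12, adjusted p = 0.167). Of 14 measured genes for transmitter synthesis, vesicular loading and uptake, Slc17a8 alone was called. It encodes the vesicular glutamate transporter VGLUT3 and fell by 0.81 (SE 0.13, adjusted p = 0.0153), while 12 of the 14 differences were positive. Of all probe sets 54.6% had a negative difference in cortex.

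Of 12 measured ionotropic relatives none was called in cortex, and Gabrq had the smallest p (0.27, SE 0.08, adjusted p = 0.224). Markers of interneurons, which Nex-Cre spares, had a median difference of −0.02 over 12 genes with none called. Microglial markers had positive differences in 10 of 10 genes, with a median of 0.34 and none called. Of 5 cortex markers, Fezf2 (−1.63) and Bcl11b (−0.76) were called lower, and the list mean was 8.75 to 8.91 on cKO arrays and 9.30 to 9.42 on control arrays. The mean of 5 excitatory neuron markers was 9.54 to 9.68 on cKO and 9.72 to 10.03 on control arrays, with Neurod6, the site of the Cre, called lower (−1.87) and a median difference of 0.10. Of 6 striatal markers Drd1 was lower (−1.22), and of 6 hippocampal markers Lhx9 was higher (0.85). The part of these shifts in the receptor results was not tested.

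No gene beside Grm8 or Grik4 was called in cortex. In RefSeq order, the 3 measured genes on each side of Grik4 had cortex differences of −0.17 to 0.06 and those beside Grm8 −0.11 to 0.18, with none of the 6 called in either case. Over all members, 4 of 151 such neighbours were called (2.65%, against 1.95% of all probe sets), each near a member that was not. Gask1b, with 0 genes between it and Gria2, was lower (−0.72, limma adjusted p = 0.00230). Edem1, with 1 gene between it and Grm7, was higher (0.46, adjusted p = 0.0261). Further from Grm3, with 4 and 5 genes between, Sema3d was lower (−0.44, adjusted p = 0.0328) and Sema3a higher (0.42, adjusted p = 0.0251). Both are secreted semaphorins that guide axons.

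In hippocampus, the comparison rests on 1 cKO array, assumed to vary like the other groups, and called no receptor gene. The only probe set that limma called there (0.00429% of all probe sets) was lower. In simulated arrays of this layout the comparison recovered 0% of 1.3-fold, 6% of 1.5-fold and 54% of 2-fold changes. The same shares in cortex were 26%, 56% and 84%. Each share comes from a single draw with 50 changed probe sets per fold and independent normal noise, and depends on these settings. Ctcf was 0.75 lower in hippocampus (SE 0.13) and was not called either. The lack of a call here thus does not show the lack of a change. At an unadjusted p under 0.05 there were 4 members (14.8%, against 6.21% of all probe sets): Grm8, Grik2, Gria4 and Grm3.

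Grm8 read 7.07 and 7.20 on the hippocampus control arrays and 6.42 on the cKO array, below both. The difference was −0.71 (SE 0.15, 95% interval −1.06 to −0.37, adjusted p = 0.297). After a second quantile normalisation it was −0.80 (adjusted p = 0.0309), the only setting that called a receptor gene here. On the arrays set aside Grm8 read 8.15 on control 2 and 6.57 and 6.72 on cKO 1 and 3. These arrays matched cortex arrays, so their values do not bear on hippocampus.

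Grik2 read 9.06 and 9.21 on the control arrays and 9.57 on the cKO array, above both (0.44, SE 0.15, adjusted p = 0.592). Gria4, the GluA4 subunit of early synapses and of interneurons, read 8.93 and 9.07 against 9.36 (0.36, SE 0.13, adjusted p = 0.653). Grm3 read 10.32 and 10.55 against 10.13 (−0.31, SE 0.13, adjusted p = 0.782), and turned to 0.13 with all 14 arrays as labelled. For each of the 3 the cKO array lies outside the control pair, as it does for 20 of the 27 members and 67.3% of all probe sets.

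Grik4 was at 9.33 and 9.48 on the hippocampus control arrays and 9.23 on the cKO array, a difference of −0.18 (adjusted p = 0.974). Gabra5 read 10.71 and 10.87 against 10.49 (−0.30, adjusted p = 0.812). Grin2a read 9.57 and 9.86 against 9.16, and Gabrd 6.62 and 6.70 against 6.27, with differences of −0.56 (SE 0.36) and −0.39 (SE 0.35). Grik5 read 9.54 and 9.47 against 9.69 (0.19, SE 0.11). In each the cKO array lay outside the control pair, and none was called.

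No receptor gene differed between regions in its change with genotype by the interaction term, which called 0.00857% of all probe sets. At an unadjusted p under 0.05 there were 3 members (11.1%, against 5.26% of all probe sets). The change in hippocampus minus that in cortex was 0.75 for Grm8 (SE 0.18, adjusted p = 0.540), 0.58 for Grik4 (SE 0.19, adjusted p = 0.812) and 0.53 for Grik2 (SE 0.17, adjusted p = 0.812). On the same measure Ctcf was at 0.67 (SE 0.15) and Neurod6 at 0.68 (SE 0.41). The fall of Ctcf itself was thus smaller on the hippocampus cKO array, and its part in the receptor values was not tested. The interaction also rests on that 1 array, so the lack of a call does not show the lack of a difference. Among members, the furthest in the opposite direction were Grin2c (−0.20, SE 0.26), Gria1 (−0.16, SE 0.15) and Gria2 (−0.15, SE 0.12). Gria2 read 11.41 and 11.45 on the hippocampus control arrays and 11.42 on the cKO array. Grin2c read 6.59 and 6.69 against 6.55 in hippocampus, and from 6.18 to 6.31 against from 6.11 to 6.71 in cortex.

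The genotype comparisons of cortex and hippocampus share no array that entered the fit. Across the 27 genes their differences correlated at r = 0.738 (Spearman 0.627), with the same sign in 20 genes (74.1%, against 53.8% of all probe sets), and r was 0.614 without Grm8. These are correlations across genes that share arrays and normalisation, and genes are not independent replicates.

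More receptor genes were called between regions than between genotypes. In controls 11 of the 27 (40.7%) were called between hippocampus and cortex, 3 higher and 8 lower in hippocampus. Of all probe sets 12.5% were called, 6.2% higher and 6.29% lower, or 1446 and 1467. After centring each array on its median these were 1095 and 2455, with the members still at 3 and 8. The median absolute difference was 0.33 for the members and 0.24 for all probe sets. Groups did not overlap for 16 members (59.3%, against 37.6% of all probe sets), and 14 had an unadjusted p under 0.05 (51.9%, against 28.8%).

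Grik4 showed the greatest difference of the 27 between regions. Its 4 cortex control values, 7.74 to 8.13, lay well below the hippocampus values of 9.33 and 9.48. The level in hippocampus was 2.86-fold higher (1.52 log2 units, SE 0.11, limma adjusted p = 0.000132). In the adult brain Grik4 is known for its strong expression in CA3 pyramidal neurons, which receive the mossy fibre input.

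Gria1 encodes GluA1, an AMPA subunit abundant in hippocampal pyramidal neurons. It read 10.35, 10.31, 10.38 and 10.34 in cortex and 11.22 and 11.27 in hippocampus. The 1.86-fold higher level in hippocampus (0.90, SE 0.09, adjusted p = 0.000767) compares with little spread in either group. Gabra2, the alpha2 subunit of synaptic GABA-A receptors, read 7.98, 7.44, 7.59 and 7.89 in cortex and 8.61 and 8.66 in hippocampus, 1.88-fold higher (0.91, SE 0.15, adjusted p = 0.00727).

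The 8 genes lower in hippocampus include 4 metabotropic genes of the 5 measured. Grm3 read 11.64, 11.69, 11.67 and 11.62 in cortex and 10.32 and 10.55 in hippocampus, 2.32-fold lower (−1.22, SE 0.09, adjusted p = 0.000134). Grm8, at 8.10 to 8.41 in cortex and 7.07 and 7.20 in hippocampus, was 2.14-fold lower (−1.09, SE 0.11, adjusted p = 0.000611). Neither gene had overlapping groups.

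Grm4 (mGluR4) read 7.60, 7.29, 7.37 and 7.57 in cortex and 6.80 and 6.92 in hippocampus, at −0.60 (SE 0.13, adjusted p = 0.0176). Grm7 read 10.04, 9.80, 9.88 and 10.01 in cortex and 9.53 and 9.67 in hippocampus, at −0.33 (SE 0.09, adjusted p = 0.0476). The groups were separate in both, though the Grm7 call ended in 9 of the 11 fits that left out 1 array.

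GABA-A genes lower in hippocampus were Gabrb2, the beta2 subunit, and Gabra3, the alpha3 subunit of the perinatal cortex. Gabrb2 read 10.42, 10.23, 10.22 and 10.43 in cortex and 9.61 and 9.74 in hippocampus (−0.65, SE 0.10, adjusted p = 0.00458). Its other probe set differed by −0.59 and was not called (adjusted p = 0.0807). Gabra3 read 10.60, 10.50, 10.62 and 10.56 in cortex and 9.98 and 9.97 in hippocampus (−0.60, SE 0.09, adjusted p = 0.00559).

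The remaining calls were Gria4 and Grin2b. Gria4 read 9.68, 9.46, 9.56 and 9.56 in cortex and 8.93 and 9.07 in hippocampus (−0.56, SE 0.09, adjusted p = 0.00635). Grin2b read 11.53, 11.58, 11.60 and 11.55 in cortex and 11.20 and 11.31 in hippocampus (−0.31, SE 0.07, adjusted p = 0.0272), and its call ended in 5 of the 11 fits that left out 1 array. Within the AMPA family Gria1 was thus higher and Gria4 lower in hippocampus, while Gria2 differed by 0.02 (SE 0.07) and Gria3 by −0.21 (SE 0.18).

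With 2 hippocampus control arrays these calls depend on each of them. Fewer were called without hippocampus control 1, which lacks Y-linked signal, and without hippocampus control 3, among members and among all probe sets alike. Either fit leaves 1 hippocampus control array. Over the fits that left out 1 array, the difference was 1.44 to 1.59 for Grik4 and 0.88 to 0.92 for Gria1. It was −1.33 to −1.10 for Grm3, −1.16 to −1.03 for Grm8 and −0.40 to −0.26 for Grm7. Choroid plexus markers moved with region: the mean of 5 was 6.18 and 7.53 on the hippocampus control arrays and 7.11 on the hippocampus cKO array, against 5.22 to 5.44 in cortex, and 3 of the 5 were called higher in hippocampus. Their part in the receptor results was not tested. Interneuron markers were called higher in hippocampus for 3 of 12 genes, where 6.2% of all probe sets were called higher. Of the 12 differences 8 were positive and 4 negative, from −0.47 to 0.53 with a median of 0.11, and Gad1 was at 0.49 (SE 0.11). Astrocyte markers were called higher for 2 of 9 genes, with 7 positive and 2 negative differences and a median of 0.46.

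**Figure D4:**
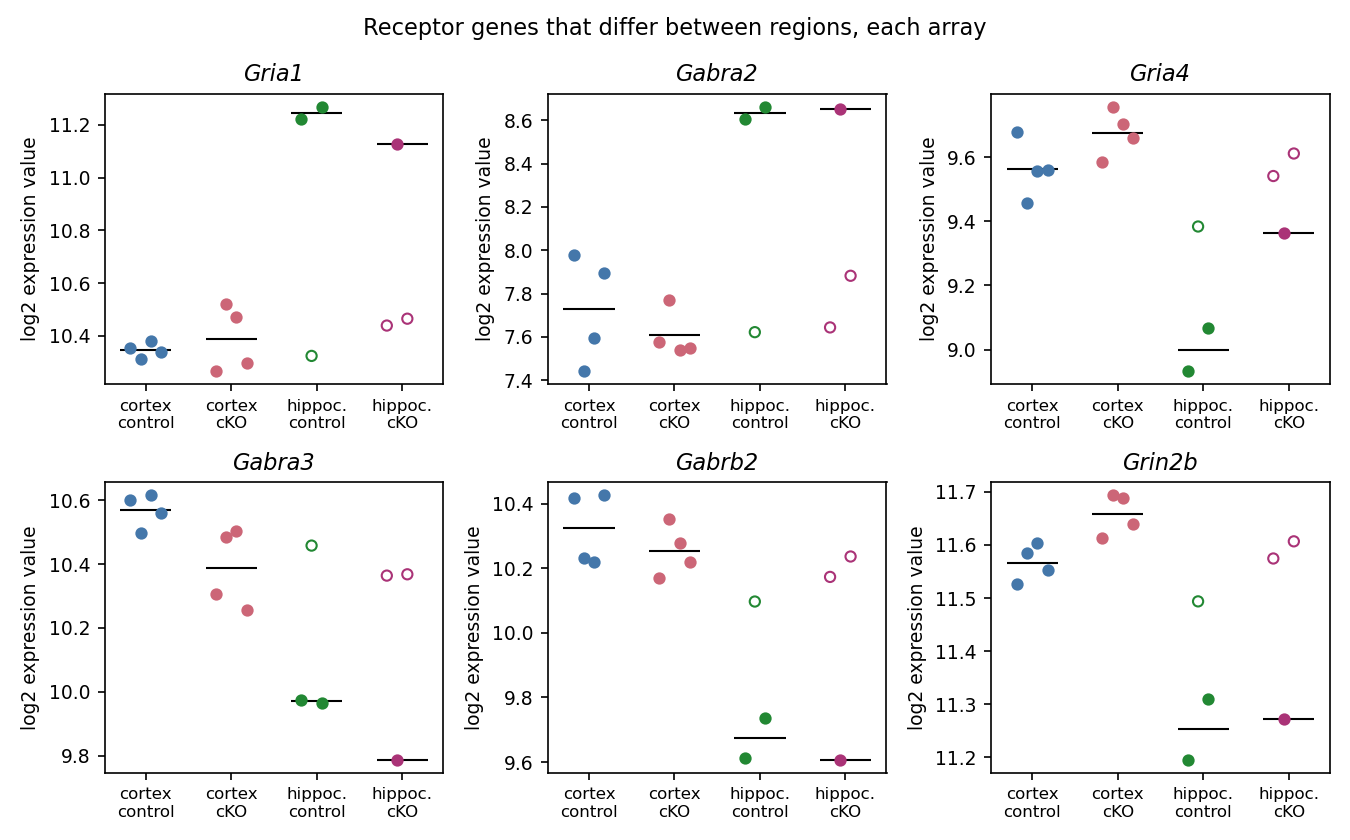
Log2 expression value (vertical axis) of 6 receptor genes on each of the 14 arrays, by region and genotype; filled points entered the fit, open points are the hippocampus-labelled arrays set aside, and lines are means of the filled points. Gria1 and Gabra2 are higher and Gria4, Gabra3, Gabrb2 and Grin2b lower on the hippocampus arrays kept in the fit, and the open points lie near the cortex arrays.

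The same regional difference was measured in the cKO animals, with 1 hippocampus and 4 cortex arrays, none shared with the comparison in controls. Here 7 of the 27 (25.9%) were called, 4 higher and 3 lower in hippocampus, against 4.09% of all probe sets. Of these 602 were higher (2.58%) and 352 lower (1.51%). Centring each array on its median moved every difference in this comparison by −0.16. It gave 402 higher and 1064 lower probe sets, and 3 higher and 8 lower members. With the Y-linked signal as a covariate fewer were called, among members and among all probe sets alike. Before adjustment 13 members had a p under 0.05 (48.1%, against 20.2% of all probe sets), and for 24 the hippocampus array lay outside the cortex range (88.9%, against 60.6%).

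Grik4 read 9.23 on the hippocampus cKO array and 7.05 to 7.18 in cKO cortex, 4.27-fold higher (2.09, SE 0.15, limma adjusted p = 0.000246). Gria1 read 11.13 against 10.27, 10.52, 10.47 and 10.30 in cortex (0.74, SE 0.12, adjusted p = 0.0127). Gabra2 read 8.65 against 7.57, 7.77, 7.54 and 7.55 (1.04, SE 0.20, adjusted p = 0.0234). In all 3 the hippocampus array lay above every cortex array, as in the controls.

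Grik2 was called in the cKO comparison only, reading 9.57 against 8.97, 9.08, 8.79 and 9.0003 in cortex (0.61, SE 0.13, adjusted p = 0.0394). The call ended in 9 of 10 fits that left out 1 array, and in controls the difference was 0.08 (SE 0.10). The difference between those 2 values is the interaction term of Grik2 given above, which was not called.

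Lower in cKO hippocampus were Grm3, Gabrb2 and Gabra3. Grm3 read 10.13 against 11.51, 11.48, 11.41 and 11.32 in cortex (−1.30, SE 0.12, adjusted p = 0.000823). Gabrb2 read 9.61 against 10.17, 10.35, 10.28 and 10.22 (−0.65, SE 0.13, adjusted p = 0.0273), and Gabra3 9.79 against 10.31, 10.48, 10.50 and 10.26 (−0.60, SE 0.12, adjusted p = 0.0309). For these too the hippocampus array lay outside the whole cortex range. Leaving out cortex cKO 2, 3 or 4 reduced the called members to 4, and Grik4, Gria1 and Grm3 were called in each such fit.

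Grm8 was 0.35 lower in hippocampus than in cortex among cKO arrays (adjusted p = 0.207), where the difference was −1.09 in controls. It was called after centring each array on its median (−0.51, adjusted p = 0.0186) and after a second quantile normalisation (−0.50, adjusted p = 0.0143). It read 6.42 in cKO hippocampus and 6.67 to 6.83 in cKO cortex. Across the 27 genes the regional differences of controls and cKO correlated at r = 0.931 (Spearman 0.929), and 25 had the same sign (92.6%, against 72.5% of all probe sets). Without Grik4 and Grm3 r was 0.883, and over all probe sets it was 0.565. This too is a description across genes.

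**Figure D5:**
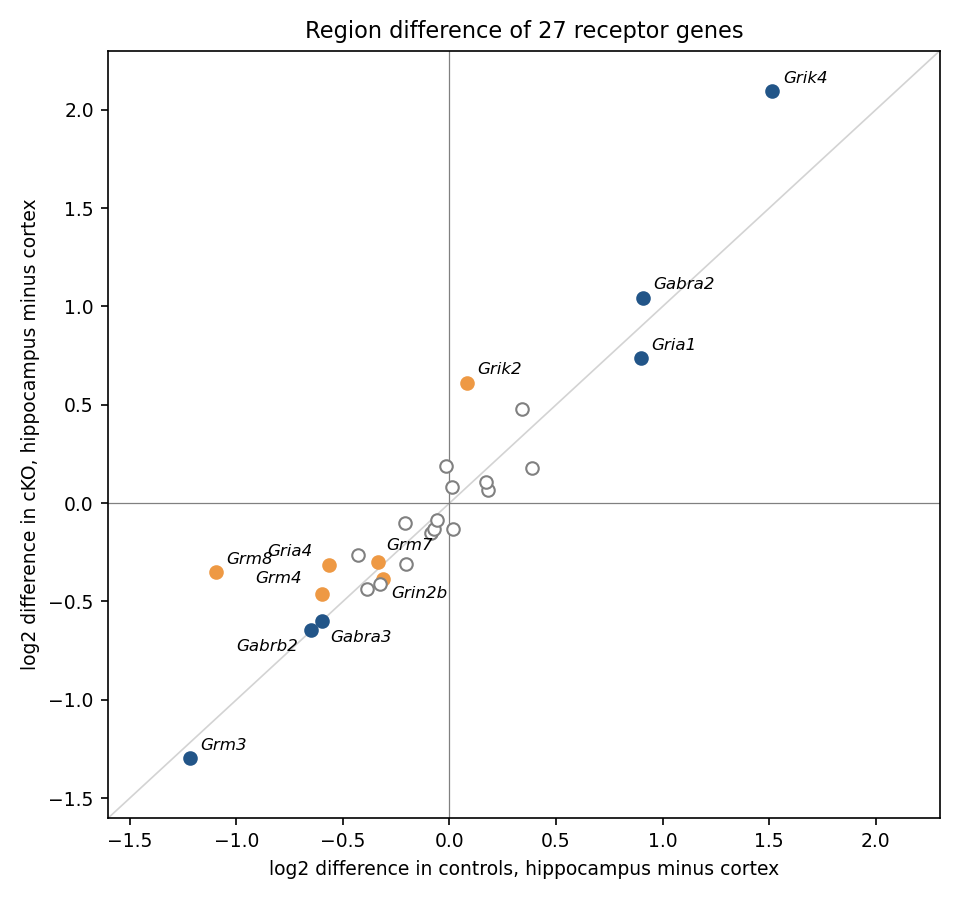
Difference in log2 expression, hippocampus minus cortex, in controls (horizontal axis) and in cKO (vertical axis) for the 27 receptor genes; blue points were called in both comparisons, orange points in 1 of them and open points in neither, and the line marks equal differences. Grik4 lies at the upper right and Grm3 at the lower left, and the difference of Grm8 is more negative in controls (−1.09) than in cKO (−0.35).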

How the data were processed

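Whole-tissue RNA was hybridised to Affymetrix whole-transcript arrays, 14 in all. Per the submitters' processing notes, the deposited log2 values were made with Affymetrix Expression Console and RMA (background correction, quantile normalisation and summary per probe set), with Partek 6.4 and build mm9 also named. RMA compresses small differences, and signal over background sets what dim probe sets can show. The deposited log2 values were not transformed further. Probe sets took symbols from the platform annotation: 14996 have 1 symbol, 1019 several and 7317 none.

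A limma model (version 3.58.1, R 4.3.3) with 1 mean for each of the 4 groups was fitted to 11 arrays and all 23332 probe sets, with empirical Bayes moderation and Benjamini-Hochberg adjustment. Calls need an adjusted p under 0.05 and a fold above 1.2, the thresholds of the series text. The 3 set-aside arrays enter only the alternative with all 14 arrays as labelled. Other alternatives were quantile normalisation, median centring, a dim filter, a trended robust variance, a 1.5-fold minimum, cortex alone, the Y-linked signal, the replicate block and leaving out each array. The script was tested on simulated data.

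The members, the gene lists and the arrays set aside were chosen with earlier results of these data known. Per-array values are given for members called in any comparison and for the 3 furthest each way in each comparison. Other members are given by class.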

Additional observations from a re-analysis of the deposited data

Results flagged for a closer look

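Gabra2 was higher on cortex cKO 2, at 7.772, than on the other 3 cortex cKO arrays, which read 7.54 to 7.57. The gap was 0.851 of the range of the group, above Dixon's critical value for 4 arrays. Chance alone gives such a gap in about 1 group in 20, and 1 was found among the 54 gene and group combinations examined. Gabra2 was not called between genotypes in cortex (−0.12, SE 0.12), and its regional difference in cKO was called without that array.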

How the results depend on the processing

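Several counts changed with the processing. In cortex the 2 called members became 1 with all 14 arrays as labelled, 1 with the replicate numbers as a block and 1 without the arrays that lack Y-linked signal, and 2 to 3 when each array was left out. In hippocampus the count of 0 became 1 (Grm8) after a second quantile normalisation, and stayed 0 in every fit without 1 array. For the regional difference in controls, 11 became 0 with all 14 arrays, 4 with the block and 4 to 11 without 1 array. In cKO, 7 became 0 with all 14 arrays, 1 with the block, 11 after median centring, 4 with the Y-linked covariate and 4 to 7 without 1 array. The interaction had 0 in each of these fits. In their deviations from the group means, same-numbered arrays of the 2 cortex genotypes correlated at −0.06 to 0.05 over all probe sets. Over the members these correlations were −0.56 to −0.33. Deviations within each group of 4 sum to 0, so these values cannot settle whether the numbers pair the arrays.

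Among members called, at an unadjusted p under 0.05 or furthest each way, signs turned with all 14 arrays for Gabrd (0.052) and Grm3 (0.13) in hippocampus, and for Grik4 (−0.19) and Grin2c (0.0079) in the interaction. That fit puts the arrays without hippocampal markers into the hippocampus groups. Over all 27 genes and 5 comparisons, 2808 values under alternatives were computed: 2581 kept sign and side of the threshold, 83 lost the call, 14 gained it and 130 changed sign. Of the 130, 2 had an unadjusted p under 0.05 as reported. Median centring added Gria4, Grin2b, Grm4, Grm7 and Grm8 to the regional calls in cKO. Called probe sets in cortex numbered 455, with 355 for all 14 arrays, 118 with the block, 282 with the Y-linked covariate, 56 without the arrays that lack Y-linked signal, 287 at 1.5-fold, and 273 to 455 without 1 array. In controls 597 to 2913 probe sets were called between regions without 1 array. With 1 hippocampus cKO array, every result that uses it has no replicate of its own.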

Other observations

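Some genes of the related lists were called between regions in controls, where 6.2% of all probe sets were called higher and 6.29% lower in hippocampus. Among 20 measured scaffold and anchoring genes, 2 were higher and 4 lower. Homer3, which links metabotropic receptors to calcium stores, was 0.62 higher (SE 0.10, limma adjusted p = 0.00690), and Kctd12, an auxiliary subunit of GABA-B receptors, was 0.58 higher (SE 0.11, adjusted p = 0.0100). Dlg2 (PSD-93) was lower by −0.74 (SE 0.10, adjusted p = 0.00303), Dlg1 by −0.61, Dlgap4 by −0.46 and Lhfpl4, a GABA-A receptor partner, by −0.38. In cKO, Homer3 (0.77), Kctd12 (0.64), Dlg2 (−0.74) and Dlgap4 (−0.57) were called in the same directions.

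Among 7 measured auxiliary subunits, Cnih2 was 0.34 higher in control hippocampus, and Cnih3 (−0.47) and Neto2 (−0.85) were lower. Among 14 transmitter genes, Gad1 (0.49) and Slc1a3 (0.57) were higher and Slc17a8 (−1.40) and Slc6a13 (−0.31) lower. Among 12 ionotropic relatives, the glycine receptor gene Glra3 was lower by −1.81 (SE 0.25, adjusted p = 0.00303) and Gabrr1 was 0.42 higher, and in cKO Gabrq was 0.69 higher. No gene of these 4 lists was called between genotypes in hippocampus, where the smallest p of the auxiliary, scaffold, transmitter and relative lists belonged to Neto1, Slitrk3, Slc6a13 and Gabrq, nor for the interaction, where it belonged to Cacng4, Shank3, Slc17a8 and Glra2.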
